A study of Homo sapiens with 6 samples.

Results

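The ribosomal S6 kinases are 8 genes of the 60668 in the expression table: RPS6KA1, RPS6KA2, RPS6KA3 and RPS6KA6 of the RSK group, RPS6KA4 and RPS6KA5 of the MSK group, and RPS6KB1 and RPS6KB2 of the S6K group. RPS6KA2 was chosen by its normalized counts, for its large rise from control to low glucose in these same libraries, so its values are given as a description with no test, and its 7 relatives were taken because they belong to the same family. All of the RNA came from MiaPaCa-2, an established human pancreatic ductal adenocarcinoma (PDAC) cell line. The cells were kept for 48 h in low glucose (2.5 mM, 3 libraries) or in control medium (25 mM, 3 libraries), with no other genotype or agent in either condition. The control concentration is that of the study's design text; the treatment field of the sample labels reads 2.5 mM for the controls too, while their titles call them control. The study calls the replicates independent and biological, and only 1 cell line is represented.

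Ribosomal S6 kinases are serine/threonine kinases of the AGC family, named for a ribosomal protein that several of them phosphorylate. RSKs carry a pair of kinase domains and are switched on by ERK at the end of a growth factor kinase cascade, together with PDK1, and they act on translation, survival and cell cycle proteins. MSKs are close relatives that lie mostly in the nucleus, respond to p38 as well as ERK, and phosphorylate histone H3 and the transcription factor CREB, whereas S6Ks have 1 kinase domain and serve mTORC1, the nutrient-sensing complex that promotes protein synthesis. These are activities of proteins, and the values here are levels of mRNA, which do not measure phosphorylation.

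Since the members are paralogs, the longest stretch of identical coding sequence was found for each of the 28 pairs. It ran from 11 to 24 bases over all pairs and from 12 to 23 bases in the 7 pairs that include RPS6KA2. The stretches below are those that tie RPS6KA2 to its RSK relatives that were expressed and the S6Ks to each other. Capitals mark the shared run and lower case the 12 bases of the transcript on each side (hg38, Gencode v44, 5′ to 3′ on the gene's strand). RPS6KA1 and RPS6KA2 shared 23 bases, in exon 5 of RPS6KA1 (chr1:26551694-26551716, plus strand) and exon 7 of RPS6KA2 (chr6:166508210-166508232, minus strand).
RPS6KA1: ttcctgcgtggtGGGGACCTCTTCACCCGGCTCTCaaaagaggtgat
RPS6KA2: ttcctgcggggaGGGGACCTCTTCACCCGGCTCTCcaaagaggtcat
RPS6KA2 and RPS6KA3 also shared 23 bases, in exon 4 of RPS6KA2 (chr6:166538705-166538727, minus strand) and exon 3 of RPS6KA3 (chrX:20209325-20209347, minus strand).
RPS6KA2: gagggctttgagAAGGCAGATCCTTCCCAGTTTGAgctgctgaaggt
RPS6KA3: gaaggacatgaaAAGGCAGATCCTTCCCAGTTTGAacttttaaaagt
RPS6KB1 and RPS6KB2 shared 22 bases, both in exon 5 (chr17:59926552-59926573 and chr11:67431485-67431506, plus strand).
RPS6KB1: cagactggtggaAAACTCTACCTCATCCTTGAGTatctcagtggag
RPS6KB2: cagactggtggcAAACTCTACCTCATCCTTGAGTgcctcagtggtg
No pair shared an identical coding run longer than 24 bases, and the members are described below as separate genes. Untranslated parts of exons and stretches that are nearly identical were not compared. How the authors' counting treated reads with more than 1 match is not given in the sources used here.

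The 6 libraries held 9741183 to 13733477 reads on genes. Of the 21101 genes tested (mean normalized count of 1 or more), 3111 were higher and 3417 lower in low glucose (limma, Benjamini-Hochberg adjusted p under 0.05), which is 14.7% and 16.2% of those tested and 30.9% in all. When counts were scaled by library size in place of the authors' size factors, the split was 3935 higher and 2647 lower. The conditions did not overlap at 43.9% of genes, 22.1% with higher and 21.8% with lower values in low glucose. No pair of libraries within a condition agreed within sampling noise: chi-square values per gene were 1.90 to 2.89 among low-glucose libraries and 4.63 to 18.9 among controls. The middle and deepest control libraries, named here by their read totals, were the pair farthest apart. The low-glucose libraries showed the treatment: TXNIP, which is transcribed in response to glucose, fell by 1.12 on the log2 scale, and the ER chaperone HSPA5 rose by 1.66 (limma adjusted p = 2.38e-07 and 1.45e-08). Keratins of the pancreatic duct, KRT8, KRT18 and KRT19, had 2001 to 42135 reads in each library and fell by 1.01, 0.74 and 0.83 on the log2 scale, the mesenchymal marker VIM (vimentin) had at least 51599 reads and rose by 0.42 (limma adjusted p = 0.00819, no overlap), and the epithelial markers EPCAM and CDH1 had 0 to 3. Of the markers of other cell types, PTPRC (leukocytes) was at 0, PECAM1 (endothelium) had 0 to 3 reads and COL1A1 (fibroblasts) 3 to 14. The part of the keratin and VIM changes in the values below was not tested, and in bulk RNA fewer cells expressing a gene and less of its RNA per cell cannot be told apart.

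RPS6KA2 (ENSG00000071242.12; chr6:166409364-166906451, minus strand, hg38) encodes RSK3, an RSK that can be held near its partners by scaffold proteins. Its normalized count, that is the number of reads divided by a size factor for the library, was 29.1, 33.4 and 37.4 in the shallowest, middle and deepest control libraries and 284.7, 258.8 and 277.3 in low glucose replicates 1 and 2 and the third low glucose library. Every low-glucose library lay far above every control library, and the spread within each condition was small beside the gap. The means were 33.3 ± 4.15 in control and 273.6 ± 13.3 in low glucose (SD, n = 3), a ratio of 8.21. These values stand on 26 to 35 reads in each control library and 262 to 366 in each low-glucose library, so the control level is the less precise of the pair.

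On the scale of log2(normalized count + 1), the RPS6KA2 difference was 3.01 (SE 0.153, 95% interval 2.68 to 3.33). It ranked 33 of the 21101 genes tested by log2 fold change. Among 10149 genes averaging 100 or more it ranked 3, between INHBE (3.29), an inhibin subunit, and DDIT3 (2.84), the stress transcription factor CHOP. Both were named after their values were seen, as the neighbours in that order. The difference lay between 2.86 and 3.09 under 10 other ways of processing the table and between 2.91 and 3.09 when any 1 library was left out. Because the gene was chosen for this rise, none of these values is evidence that the rise is particular to it.

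**Figure D1:**
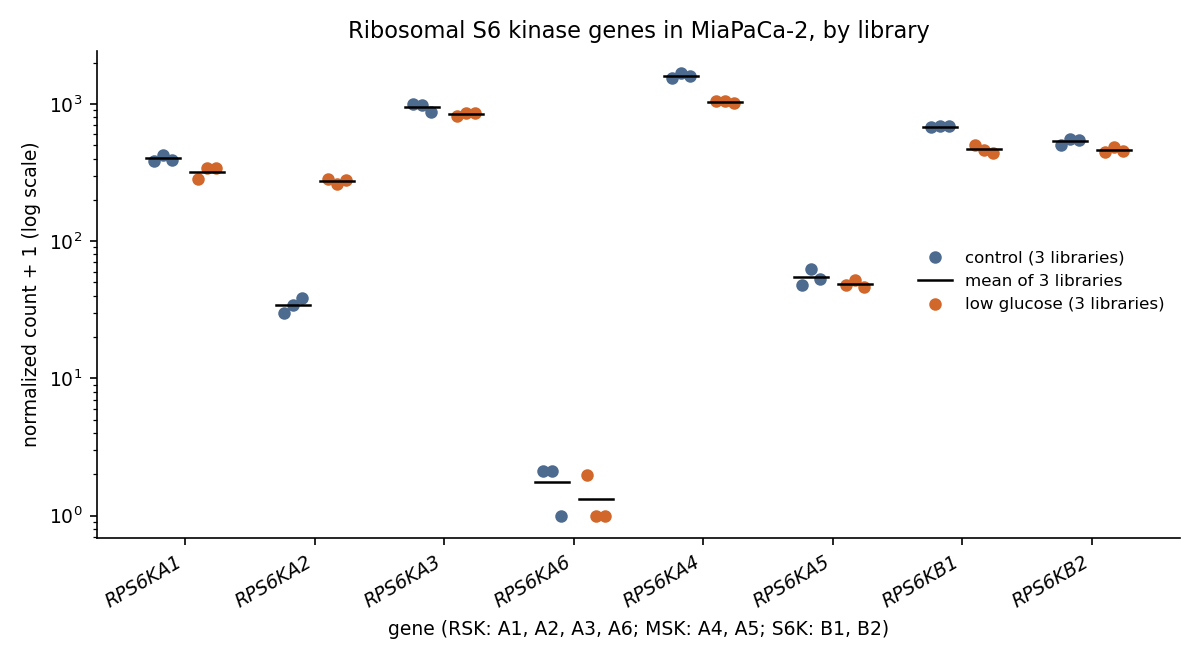
Normalized count plus 1 on a log axis for each ribosomal S6 kinase gene, with 1 point per library (blue, control; orange, low glucose; 3 libraries each) and a black line at the mean. RPS6KA2 is the member whose low-glucose points (258.8 to 284.7) lie above its control points (29.1 to 37.4) without overlap, and RPS6KA6 had at most 1 read in a library.

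RPS6KA1 encodes RSK1, a widely expressed RSK. Its normalized count was 381, 426 and 393 in the control libraries and 283, 339 and 338 in low glucose. The conditions did not overlap, with low glucose replicate 1 the lowest library. The mean fell from 399.9 ± 23.2 to 319.9 ± 32.1 (SD, n = 3), a log2 fold change of -0.32 (SE 0.103, 95% interval -0.54 to -0.11, limma adjusted p = 0.0260). Without low glucose replicate 1 the call was lost and the log2 fold change was -0.24 (limma adjusted p = 0.147). Without replicate 2 the log2 fold change was larger, -0.37, but the limma adjusted p of 0.0502 just missed the threshold and the call was lost. Without the third low glucose library the values were alike, and the call was just kept (-0.37, limma adjusted p = 0.0494). The call was also lost with scaling by library size (-0.24, adjusted p = 0.0802) and with a variance model that ignored expression level (adjusted p = 0.104).

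RPS6KA3 encodes RSK2, the RSK altered in Coffin-Lowry syndrome. Its normalized count was 990, 976 and 869 in control and 810, 857 and 856 in low glucose. The deepest control library came close to the low-glucose libraries without crossing them. The log2 fold change was -0.17 (SE 0.0816, 95% interval -0.34 to 0.01), which did not pass the test (limma adjusted p = 0.141), and it passed only when the deepest control library was left out (-0.23, adjusted p = 0.0331). RPS6KA6, the gene of RSK4, had 0 or 1 read in every library. Both conditions were under 3 reads, so no fold is given, and a difference was not detectable at this depth.

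To set the RSKs side by side, reads were divided by gene length and scaled to the same total in each library (TPM), with the union of a gene's exons as its length. RPS6KA2 rose from 1.22 ± 0.135 to 9.58 ± 0.559 TPM (SD, n = 3), RPS6KA1 went from 20.5 ± 1.02 to 15.7 ± 1.54, and RPS6KA3 from 29.1 ± 2.37 to 24.8 ± 0.766. RPS6KA2 was the lowest of these 3 in all 6 libraries, and in low glucose it came closest to RPS6KA1 in replicate 1, where RPS6KA1 was at 13.9 TPM. Its share of RSK mRNA by TPM was 2.08%, 2.30% and 2.84% in the control libraries and 20.9%, 17.8% and 18.8% in low glucose replicates 1 and 2 and the third library. The mean share was 2.41 ± 0.388% in control and 19.2 ± 1.57% in low glucose, and 2.24% and 18.2% when the longest transcript was used as the length. The summed RSK level was 50.8 ± 2.73 TPM in control and 50.1 ± 2.05 in low glucose, so the groups differed by less than their spread in total while their make-up differed. RPS6KA1 and RPS6KA3 cannot be ranked against each other on these data: RPS6KA3 had the larger share with the exon union (57.2% against 40.3% in control) and RPS6KA1 with the longest transcript (50.2% against 47.5%).

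**Figure D2:**
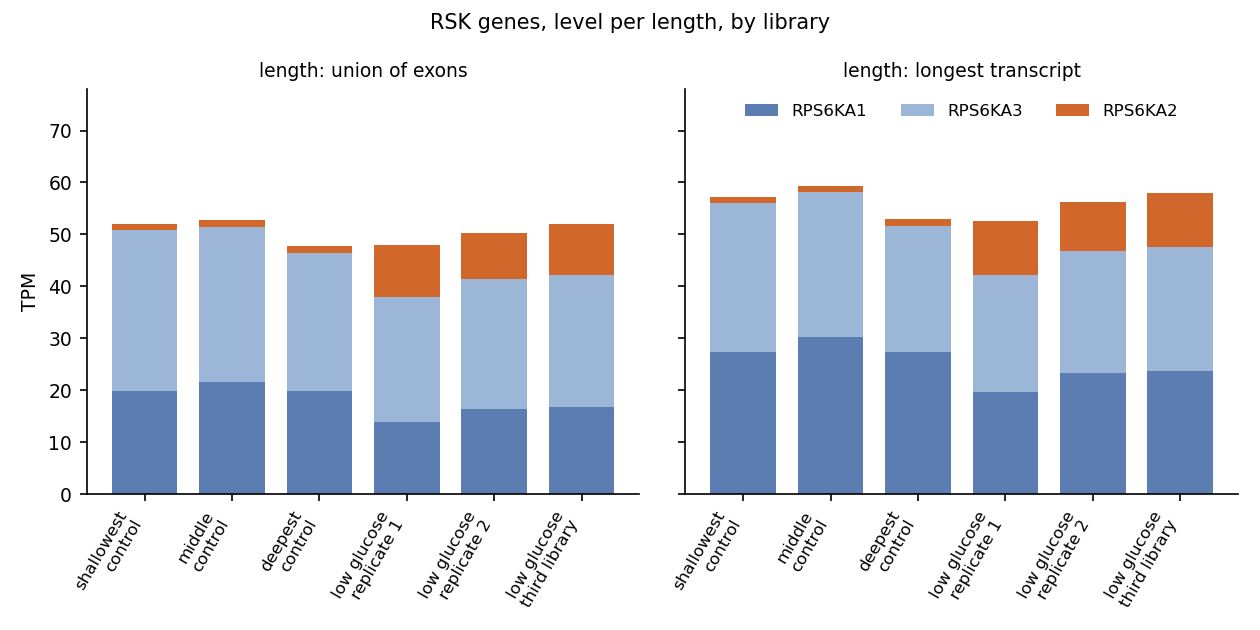
Stacked bars of the level of RPS6KA1, RPS6KA3 and RPS6KA2 in TPM for each library, with gene length taken as the union of exons (left) or the longest transcript (right); RPS6KA6, under 0.1% of the total, is not drawn. The orange RPS6KA2 segment makes up 2.08% to 2.84% of RSK mRNA in the control bars and 17.8% to 20.9% in the low-glucose bars on the left, at a similar total height.

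RPS6KA4 encodes MSK2 and was the most abundant member per length, at 126.9 ± 4.77 TPM in control. Its normalized count was 1538, 1683 and 1586 in control and 1048, 1054 and 1016 in low glucose. The low-glucose libraries lay close together and well below every control library. The mean fell by 35.1%, from 1602 ± 73.9 to 1039 ± 20.3 (SD, n = 3), a log2 fold change of -0.62 (SE 0.0743, 95% interval -0.78 to -0.46, limma adjusted p = 2.27e-05). This call held under all 16 alternatives, with log2 fold changes from -0.65 to -0.45.

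RPS6KA5, the gene of MSK1, was present at a low level (0.577 ± 0.0715 TPM in control and 0.495 ± 0.0257 in low glucose). Its normalized count was 47.1, 61.3 and 52.4 in control and 47.1, 51.4 and 45.5 in low glucose. The conditions overlapped, and the log2 fold change of -0.15 had a 95% interval from -0.57 to 0.27 (limma adjusted p = 0.613). RPS6KA5 shares 309 bases of exon with DGLUCY on the other strand, and DGLUCY rose by 0.50 on the log2 scale (limma adjusted p = 0.00404). The library kit was strand-specific, but the strand setting of the counting is not given in the sources used here.

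RPS6KB1 encodes S6K1, the main S6 kinase below mTORC1. Its normalized count was 676, 687 and 688 in the control libraries and 503, 457 and 441 in low glucose. Control libraries agreed closely, and low glucose replicate 1 was the highest of the low-glucose libraries yet far below them. The mean fell by 31.7%, from 683.5 ± 6.55 to 467 ± 32.2 (SD, n = 3), a log2 fold change of -0.55 (SE 0.0851, 95% interval -0.73 to -0.37, limma adjusted p = 0.00021). Every alternative kept this call, with values from -0.60 to -0.47.

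RPS6KB2 encodes S6K2. Its normalized count was 502, 558 and 544 in control and 448, 487 and 451 in low glucose. The groups did not overlap, but the shallowest control library and low glucose replicate 2 were close. The log2 fold change of -0.21 (SE 0.0876, 95% interval -0.40 to -0.02) did not pass the test after adjustment over all genes (limma adjusted p = 0.0843). An antisense gene, RPS6KB2-AS1, has all 470 bases of its exons within exons of RPS6KB2 and held 162 to 263 reads, with a log2 fold change of -0.01 (limma adjusted p = 0.950).

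Of the 7 relatives of RPS6KA2, 6 had enough reads to be tested, and 3 of them, 1 from each group (RPS6KA1, RPS6KA4 and RPS6KB1), were lower in low glucose, beside 16.2% of all genes tested. None was called higher, beside 14.7%, and none had a positive log2 fold change in limma, so the count at an unadjusted p under 0.05 was also 0, as were the counts by DESeq2 and edgeR. Their median log2 fold change was -0.27, against 0.05 over all genes tested and -0.02 over genes with a mean normalized count of at least 20. Of the 6, 5 did not overlap between conditions, all lower, beside 21.8%. With so few genes these counts describe the family and say nothing on whether it differs from other genes. Summed over the 7 relatives, the level fell from 231.5 ± 7.53 to 160.3 ± 1.22 TPM (SD, n = 3), a ratio of 0.692 in which RPS6KA4 has the largest part. With RPS6KA2 included the sums were 232.7 ± 7.50 and 169.9 ± 0.666 TPM.

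**Figure D3:**
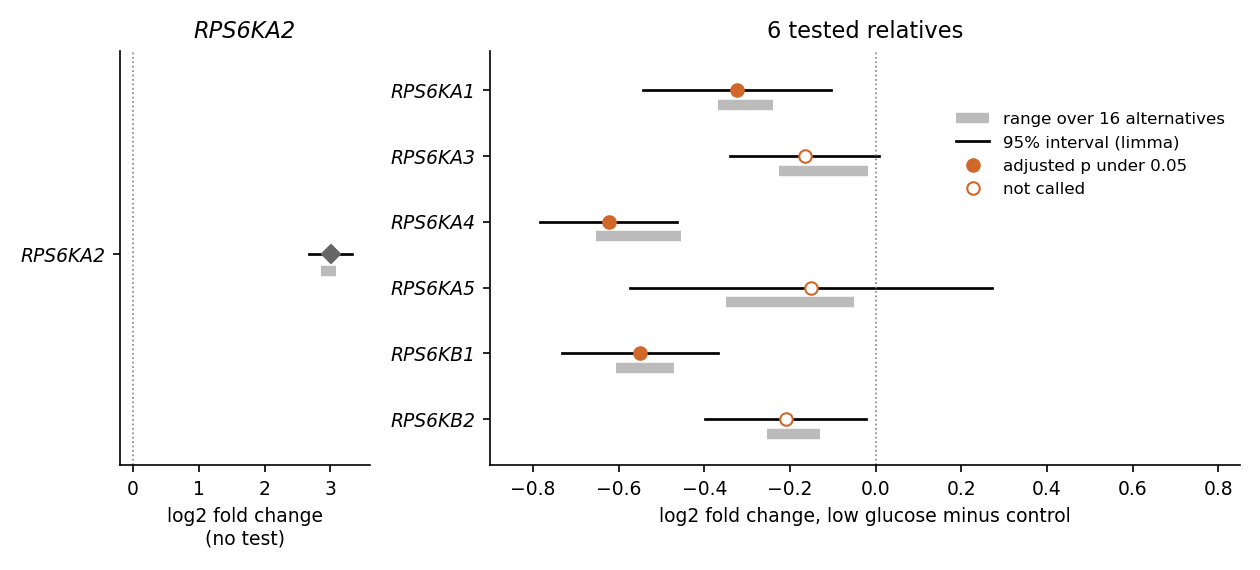
Log2 fold change of low glucose minus control for RPS6KA2 (left, grey diamond, not tested) and its 6 tested relatives (right; filled, adjusted p under 0.05; open, not called), with the 95% interval as a black line and the range over 16 alternatives as a grey bar. RPS6KA2 stands at 3.01, and all relatives lie below 0, from -0.62 for RPS6KA4 to -0.15 for RPS6KA5.

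The order of the members per length differed little between conditions. In control it ran RPS6KA4, RPS6KA3, RPS6KB2, RPS6KB1, RPS6KA1, RPS6KA2, RPS6KA5 and RPS6KA6, and in low glucose the same order held by mean. In control RPS6KA3 overlapped with RPS6KB2 and RPS6KB2 with RPS6KB1, at 26.4 to 31.0, 26.5 to 28.8 and 26.7 to 27.0 TPM. In low glucose the overlap lay instead between RPS6KB1 (16.7 to 18.9 TPM) and RPS6KA1 (13.9 to 16.7 TPM). With the longest transcript as the length, the places of RPS6KA1, RPS6KA3, RPS6KB1 and RPS6KB2 changed among themselves, whereas RPS6KA4 stayed first and RPS6KA2 sixth in both conditions.

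Ratios of paralogs within a library do not depend on the scaling between libraries, so 3 pairs were compared with an exact two-sided permutation test, whose smallest possible p is 0.1 at 3 against 3. The log2 ratio of RPS6KB1 to RPS6KB2 was 0.43, 0.30 and 0.34 in control and 0.17, -0.09 and -0.03 in low glucose, a difference of -0.34 with no overlap (exact p = 0.1, adjusted over the 3 pairs p = 0.15). That of RPS6KA4 to RPS6KA5 was 4.88 ± 0.122 in control and 4.41 ± 0.0672 in low glucose (SD, n = 3), a difference of -0.47 with no overlap (exact p = 0.1, adjusted p = 0.15). For RPS6KA1 to RPS6KA3 the difference was -0.16 and the libraries overlapped (exact p = 0.3, adjusted p = 0.3). RPS6KB1 relative to RPS6KB2, and RPS6KA4 relative to RPS6KA5, were thus lower in every low-glucose library than in any control library, although this permutation test cannot reach 0.05 with 3 against 3.

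Reads at the RPS6KA2 locus were examined to see what else is counted there. The genes inside or across RPS6KA2 were almost silent: RPS6KA2-IT1, an intronic transcript, had 0 to 7 reads, RAMACL 0 to 3, and RPS6KA2-AS1 and the microRNA gene MIR1913 had 0. ENSG00000249141, which shares 60 bases of exon with RPS6KA2, had 0 or 1 read. None of these held a number of reads near the 262 to 366 of RPS6KA2 in low glucose. Of the nearest tested genes on each side, ENSG00000280057, 19444 bases away, had 0 to 7 reads, and RNASET2, a secreted ribonuclease gene 15662 bases away, had a log2 fold change of 0.13 (limma adjusted p = 0.555).

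RefSeq (GRCh38.p14) gives 13 start-site windows of 300 bases for the 8 members, 3 of them for RPS6KA2, and these were searched on both strands. The C/EBP-ATF response element (TGATGNAAN), the ER stress response element (CCAAT and CCACG with 9 free bases between them, which contains the CCAAT box), the cAMP response element (TGACGTCA) and the E-box (CACGTG) had no match in any of the 13. They are found in 3.61%, 0.0769%, 1.85% and 7.26% of the 35116 windows of all genes, so no match in 13 windows is an ordinary count. The CCAAT box itself (CCAAT) was in 5 of the 13, beside 34.6% of all windows. All 3 RPS6KA2 windows held it, and so did a window each of RPS6KA1 and RPS6KA5, with 1 and 3 matches. The RPS6KA2 window of the start at position 166627251 had 4 matches, a number reached by 0.991% of all windows. It was picked after the search as the highest of the 13, so this share does not measure how unusual RPS6KA2 is. The 250 bases before that start (chr6:166627252-166627501, minus strand) are shown because of these repeats, with the 4 matches in capitals as the reverse complement ATTGG.
RPS6KA2: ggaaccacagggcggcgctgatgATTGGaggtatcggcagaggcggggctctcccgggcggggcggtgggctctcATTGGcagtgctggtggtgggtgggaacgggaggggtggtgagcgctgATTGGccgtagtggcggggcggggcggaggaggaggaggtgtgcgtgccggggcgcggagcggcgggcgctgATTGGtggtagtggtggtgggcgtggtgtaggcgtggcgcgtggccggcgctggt
A match is only a description of letters, and which start sites were used in these cells cannot be read from gene counts.

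The 5 genes whose pattern over the 6 libraries was most like that of RPS6KA2 were taken from 10148 others with a mean of at least 100, by the root mean square difference in log2(normalized count + 1) after subtracting each gene's control mean. They were DNAJB9, a co-chaperone of the ER (0.200), HERPUD1, a membrane protein of ER-associated degradation (0.249), WIPI1, an autophagy protein (0.253), SLFN5, a Schlafen protein (0.293), and DDIT3 (0.346). Their log2 fold changes were 2.76, 3.33, 2.78, 2.63 and 2.84. The measure picks genes with a rise of similar size, so these values are a description.

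Genes above and below the kinases were taken from 6 lists with 73 genes, all of which had enough reads to be tested. Of these, 12 were higher and 15 lower in low glucose, 27 in all, beside the 30.9% of all genes tested, and the median log2 fold change was 0.00. The counts of each list below also stand beside the shares of all genes, 14.7% higher and 16.2% lower. They were not tested against these shares.

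The ERK cascade that activates RSKs had 4 of 14 genes called, 2 higher and 2 lower, with a median of -0.03. KSR1, a scaffold of the cascade, rose from 103.7 ± 11.3 to 161.5 ± 19.8 normalized counts (log2 fold change 0.63, limma adjusted p = 0.00393). PEA15, which binds ERK and keeps it in the cytoplasm, rose from 1357 ± 70.7 to 1874 ± 33.5 (0.47, limma adjusted p = 0.000252). With scaling by library size, the 2 higher calls were left and no gene of this list was called lower. MAP2K1 and MAPK3, the genes of MEK1 and ERK1, had log2 fold changes of 0.05 and 0.11 and did not pass the test.

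In the p38 branch, which serves MSKs, 4 of 6 genes were called, 1 higher and 3 lower. MAP2K3, a kinase that activates p38, fell by 0.87 on the log2 scale (from 1257 ± 38.4 to 687.6 ± 20.6 normalized counts, limma adjusted p = 1.49e-06). MAPK14, the gene of p38 alpha, fell by 0.41 (limma adjusted p = 0.00126), while MAPK12 rose by 0.37 (limma adjusted p = 0.0221). The MAPK12 value was 0.23 without the middle control library, and the call was lost without any 1 of the low-glucose libraries (adjusted p = 0.0636 to 0.103) and with no variance trend (0.136). MAP2K6, the other p38 activator, was also called lower (limma adjusted p = 0.0105), but on 4 or 5 reads in each control library and 0 or 1 in low glucose, so no fold is given.

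Above the S6Ks, 1 of 9 genes of mTORC1 and the TSC complex was called: MTOR itself fell by 0.36 on the log2 scale, from 2036 ± 286 to 1572 ± 33.4 normalized counts (limma adjusted p = 0.00826). This call was lost in some alternatives, with adjusted p up to 0.191. RPTOR, which recruits S6K to mTORC1, had a log2 fold change of -0.34 that did not pass (limma adjusted p = 0.0681), and TSC1 and TSC2, which restrain mTORC1, had values of 0.12 and 0.10 (limma adjusted p = 0.444 and 0.512). When the middle control library was left out, 5 genes of this list were called.

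Among 14 substrates of the kinases, 3 were called, 1 higher and 2 lower. EIF4B, a translation initiation factor phosphorylated by both RSK and S6K, rose by 0.33 on the log2 scale (limma adjusted p = 0.00819). POLDIP3, an S6K1 partner in translation of spliced mRNA, fell by 0.34, and the actin crosslinker FLNA by 0.52 (limma adjusted p = 0.00398 and 0.00123). RPS6, the substrate after which the family is named, had a log2 fold change of 0.25 at the edge of the threshold (limma adjusted p = 0.0501), and CREB1, a target of MSKs, had -0.18 (limma adjusted p = 0.211).

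Of 17 genes commonly used as readouts of ERK output and feedback, 9 were called, 5 higher and 4 lower, with a median of 0.02. With no variance trend, 2 were called, both lower. IER3, an immediate early gene, rose by 0.97 on the log2 scale (limma adjusted p = 0.00133), and DUSP5, a nuclear ERK phosphatase, by 0.45 (limma adjusted p = 0.0131). SPRY1, a feedback inhibitor, fell by 0.77, and CCND1, the gene of cyclin D1, by 0.80 (limma adjusted p = 7.05e-05 and 0.00011). DUSP6, a cytoplasmic ERK phosphatase, had a log2 fold change of 0.14 and did not pass the test (limma adjusted p = 0.385). The members of this list therefore moved both ways. EPHA2, another of its members, was called lower at -0.20, but its sign turned under quantile normalization (0.03).

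Among 13 other AGC and MAPK-activated kinases, 3 were higher and 3 lower. MKNK2, an ERK- and p38-activated kinase of the initiation factor eIF4E, rose from 3050 ± 167 to 5551 ± 56.2 normalized counts (log2 fold change 0.87, limma adjusted p = 1.18e-06). SGK3 rose by 0.82 and MKNK1 by 0.38 on the log2 scale, whereas AKT1 and AKT2, relatives of S6K that act above mTORC1, fell by 0.33 and 0.45 (limma adjusted p = 0.00272 and 0.000676). RPS6KC1 and RPS6KL1, which carry the S6 kinase name but are not members of the RSK, MSK or S6K groups, had log2 fold changes of 0.07 and 0.30 and did not pass (limma adjusted p = 0.653 and 0.169). Of the 27 calls in the 6 lists, 12 held in every alternative that tested them: KSR1, PEA15, MAP2K3, MAP2K6, MAPK14, POLDIP3, FLNA, SPRY1, CCND1, AKT2, SGK3 and MKNK2. MAP2K6, with its few reads, had no adjusted p with DESeq2, edgeR or a mean of at least 5, so fewer alternatives tested it.

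**Figure D4:**
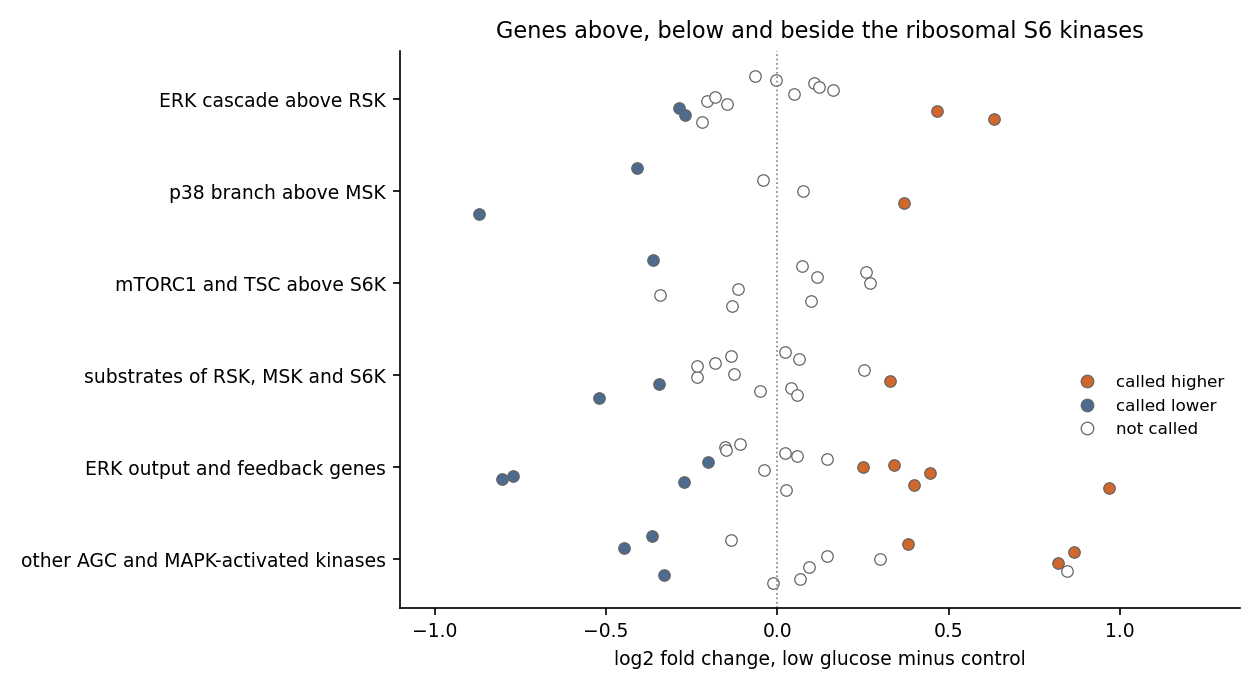
Log2 fold change of low glucose minus control (horizontal axis) for the genes of 6 lists around the ribosomal S6 kinases, 1 point per gene (orange, called higher; blue, called lower; white, not called; vertical position within a list has no meaning). MAP2K6, with 0 or 1 read in each low-glucose library, is not drawn; 12 genes are called higher and 15 lower, and the list medians run from -0.23 to 0.09.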

How the data were processed

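Libraries were strand-specific, and the authors mapped reads to hg38 with STAR 2.7.0e and used DESeq2. RSEM is among the study's listed software with no stated role; which tool counted the reads, its strand setting and the annotation are not given in the sources used here. The authors deposited a count-like signal, in which each gene's reads are divided by the size factor of the library. All values were whole multiples of a library's step (tolerance 0.01 reads), so whole reads were recovered. Columns of 2 libraries (low glucose replicates 1 and 2) are identified by the labels; the remaining 4 were assigned to conditions by the runs of their names.

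Differences were tested on log2(value + 1) for genes averaging 1 or more, with limma 3.58.1 in R 4.3.3 (two-sided, variance trend, Benjamini-Hochberg over all 21101 genes, threshold 0.05). Fold changes on this scale understate low genes. DESeq2 1.42.0 and edgeR 4.0.16 on the recovered reads, other scalings, filters and pseudocounts (0.1 in place of 1), no variance trend, reads thinned to the smallest library and leaving out each library were alternatives. In simulated data, 200 of the 21166 genes tested were changed, each by at least 1 on the log2 scale. There limma recovered 189 of these 200 with 12 false calls. That result does not measure the recovery of smaller changes, or the errors where many more genes change. TPM used Gencode v44 lengths. Gene symbols were found for 99.5% of identifiers. The members and lists were chosen with earlier results of these data known. Named were all members, called genes of the lists with up to 3 uncalled ones each, genes at the locus or overlapping a member, and the 5 most similar genes; some genes of the lists are not reported here.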

Additional observations from a re-analysis of the deposited data

How the results depend on the processing

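No tested member changed sign under any of the 16 alternatives, and RPS6KA4 and RPS6KB1 were called in all of them. RPS6KA1 (log2 fold change -0.32) lost its call with scaling by library size (-0.24) and with no variance trend (-0.32), and ranged from -0.37 to -0.24 with 1 library left out. RPS6KA3 (-0.17) ranged from -0.23 to -0.13 with 1 library left out and was at -0.02 under quantile normalization, RPS6KA5 (-0.15) ranged from -0.35 to -0.05 over all alternatives, and RPS6KA2 was at 2.86 under quantile normalization. Over all genes 4090 were called with no variance trend (2099 higher and 1991 lower, where 3111 and 3417 are reported), and 4319 to 7251 with 1 library left out. In the ERK cascade, 2 genes were called with scaling by library size and 2 with no variance trend, and 2 to 7 with 1 library left out (7 without the deepest control library). For mTORC1 and TSC, 2 genes were called with scaling by library size, TMM factors, a mean of at least 5, DESeq2, edgeR and thinned reads, 1, higher in place of lower, under quantile normalization, 0 with no variance trend in limma (1 at an unadjusted p under 0.05), and 1 to 5 with 1 library left out. For substrates, 5 were called with quantile normalization and with DESeq2, and 2 to 6 with 1 library left out (5 without the middle and 6 without the deepest control library). For ERK output genes, 2 were called, both lower, with no variance trend and 5 to 9 with 1 library left out. The cause of these differences was not tested. Fits with 1 library left out also have fewer degrees of freedom, and the part of this was not tested either. No paired analysis was possible because the columns of 4 libraries show no replicate number. Depth limits RPS6KA5, RPS6KA6 and the control level of RPS6KA2, and 3 libraries per condition limit the permutation tests to p = 0.1.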
